A study of Mus musculus with 12 samples.

Results

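The genes described here are 10 genes that mark interneurons of the caudal ganglionic eminence in mouse forebrain: Vip, Calb2, Sp8, Adarb2, Synpr, Htr3a, Npas1, Cxcl14, Prox1 and Cnr1. All 10 were found by symbol among the 43629 gene identifiers of the deposited count table, and all 10 passed the filter on low counts that left 15241 genes. They were chosen by name as genes of this cell class, by someone who already knew the IFNG and Control values of the same 12 libraries. The difference between IFNG and Control in these genes is therefore given as a description, with no p-value.

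Poly(A) RNA was sequenced from neurons of mouse cortex kept in culture, in 6 libraries named IFNG and 6 named Control. In IFNG cultures a lentivirus drove expression of Ifng, which encodes the cytokine interferon-gamma. The virus was added at 7 days in vitro and the RNA was taken 10 days later. Both groups carry the same protocol text, and the labels do not say which virus, if any, Control cultures received, nor the promoter of the construct, the mouse strain or the age of the donors. The IFNG libraries held 13875435 to 34239380 counts and the Control libraries 14408343 to 20299507 counts. Ifng itself was read at 4.98 to 17.9 CPM (counts scaled to a common library size) in IFNG libraries and 0 to 0.17 CPM in Control libraries, so that the groups did not overlap.

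Inhibitory cortical interneurons are born outside the cortex, in transient swellings of the embryonic ventral forebrain, and migrate into it. The medial eminence gives rise mainly to the parvalbumin and somatostatin classes. The caudal eminence gives rise to interneurons that make vasoactive intestinal peptide (VIP), calretinin or cholecystokinin and to neurogliaform cells, and nearly all of these carry an ionotropic serotonin receptor. VIP cells are known for inhibiting other interneurons and so releasing excitatory neurons from inhibition. None of the 10 genes is exclusive to these cells. Calb2 is also read in Cajal-Retzius cells, Prox1 in granule neurons of the dentate gyrus, and Cnr1 in many excitatory neurons.

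In bulk RNA a lower level can come from fewer cells of a type or from less RNA of that gene per cell, and these cannot be told apart here. Of the 10 genes, 8 were lower in IFNG and 1, Cxcl14, was higher at an adjusted p under 0.05 over all genes tested, and Prox1 did not pass that threshold. Over all 15241 genes, 9.79% were lower, 14.3% higher and 24.1% different in either direction by the same criterion. The median log2 fold change of the 10 genes was -1.20, beside -0.02 for all genes tested. Without IFNG 5, which had the lowest IFNG level of 6 of the genes, 7 were lower and 1 higher, and the same counts were found without IFNG 5 and Control 4 together.

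The gene with the largest fall and the gene that rose are shown with the bases before their start. They were picked by their values and because their promoters differ in the motifs they hold, so the contrast comes from the choice. Whether these motifs bear on the change was not tested. Sequences are from RefSeq (GRCm38.p6), read 5′ to 3′ on the strand of the gene, and end at the base before the annotated start. In Vip (chr10:5638968-5639217, plus strand) the capitals mark TATAAA. In Cxcl14 (chr13:56296552-56296801, minus strand) the first capitals mark TTCNNNGAA, the letters of a gamma-activated site, and the second mark the core of an interferon-stimulated response element, which is GAAA, any pair of bases and GAAA again.
Vip: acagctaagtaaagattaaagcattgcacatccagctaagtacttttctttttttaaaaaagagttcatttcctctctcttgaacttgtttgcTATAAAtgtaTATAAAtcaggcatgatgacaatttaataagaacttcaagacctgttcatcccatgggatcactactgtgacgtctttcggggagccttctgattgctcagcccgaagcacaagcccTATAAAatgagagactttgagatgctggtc
Cxcl14: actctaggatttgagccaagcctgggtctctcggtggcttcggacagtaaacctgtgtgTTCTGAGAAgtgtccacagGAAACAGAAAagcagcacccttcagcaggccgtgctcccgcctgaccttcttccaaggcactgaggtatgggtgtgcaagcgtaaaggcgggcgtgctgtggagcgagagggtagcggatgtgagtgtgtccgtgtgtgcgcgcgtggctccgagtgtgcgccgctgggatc

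Both strands of 300-base windows around the RefSeq starts were searched, and 8 of the 10 genes had such windows, 14 in all. Calb2 and Htr3a had none. TTCNNNGAA stood in the window of Cxcl14, from base -191 to -183 before the start, and in that of Npas1, from -84 to -76. Npas1, unlike Cxcl14, was lower in IFNG. Of the 32851 windows of all genes 8.30% held these letters. The response element core stood in Cxcl14 alone among the 8 genes, from -172 to -163, and in 3.44% of all windows. TATAAA stood in 3 of the 14 windows, those of Vip, Sp8 and Prox1, and in 13.6% of all windows. The match nearest the start lay from -30 to -25 in Vip and from -118 to -113 in Sp8. In Prox1 it lay from -34 to -29, on the other strand. The exact letters TGACGTCA of a cyclic AMP response element were in none of the 14 windows and in 1.79% of all windows. Forms that differ from these letters were not searched, and the Vip sequence above holds tgacgtct, which differs in its last base. These are matches of letters, and binding was not measured. The 3 motifs do not overlap in the windows of these genes.

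Of the secreted factors, Vip was much lower in IFNG. Vip (ENSMUSG00000019772, GRCm38 chromosome 10, 5639218 to 5647617, plus strand) encodes the peptide that names the VIP class of caudal interneurons. Its lowest, median and highest levels were 0.955, 4.08 and 7.10 CPM in IFNG libraries and 4.89, 13.9 and 23.6 CPM in Control libraries. The mean was 3.98 ± 2.97 CPM in IFNG and 14.5 ± 8.23 CPM in Control (SD, n = 6 each), 3.64-fold lower, with a log2 fold change of -1.85 ± 0.47 (SE). It ranked 21 from the lowest among 15241 genes. The groups overlapped, and within each group Vip also differed by library number. In IFNG libraries 1 to 3 it stood at 6.25 to 7.10 CPM and in 4 to 6 at 0.955 to 1.91 CPM. In Control libraries 1 to 3 it stood at 19.5 to 23.6 CPM and in 4 to 6 at 4.89 to 8.31 CPM. The labels attach no batch to these numbers. At each of the 6 numbers IFNG was lower than Control.

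Cxcl14 went the other way. It encodes a chemokine that is made by caudal interneurons among other cells (ENSMUSG00000021508, chromosome 13, 56288643 to 56296551, minus strand). It stood at 37.9, 43.3 and 56.1 CPM (lowest, median and highest) in IFNG libraries and at 22.1, 26.4 and 34.0 CPM in Control libraries. Every IFNG library was above every Control library. The mean was 45.2 ± 6.71 CPM in IFNG and 26.9 ± 4.42 CPM in Control (SD, n = 6 each), 1.68-fold higher, with a log2 fold change of 0.75 ± 0.12 (SE). Groups did not overlap for 4 of the 10 genes, Cxcl14, Calb2, Adarb2 and Synpr, and for 12.8% of all genes tested, from which nothing is read about a set chosen with its values known.

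**Figure D1:**
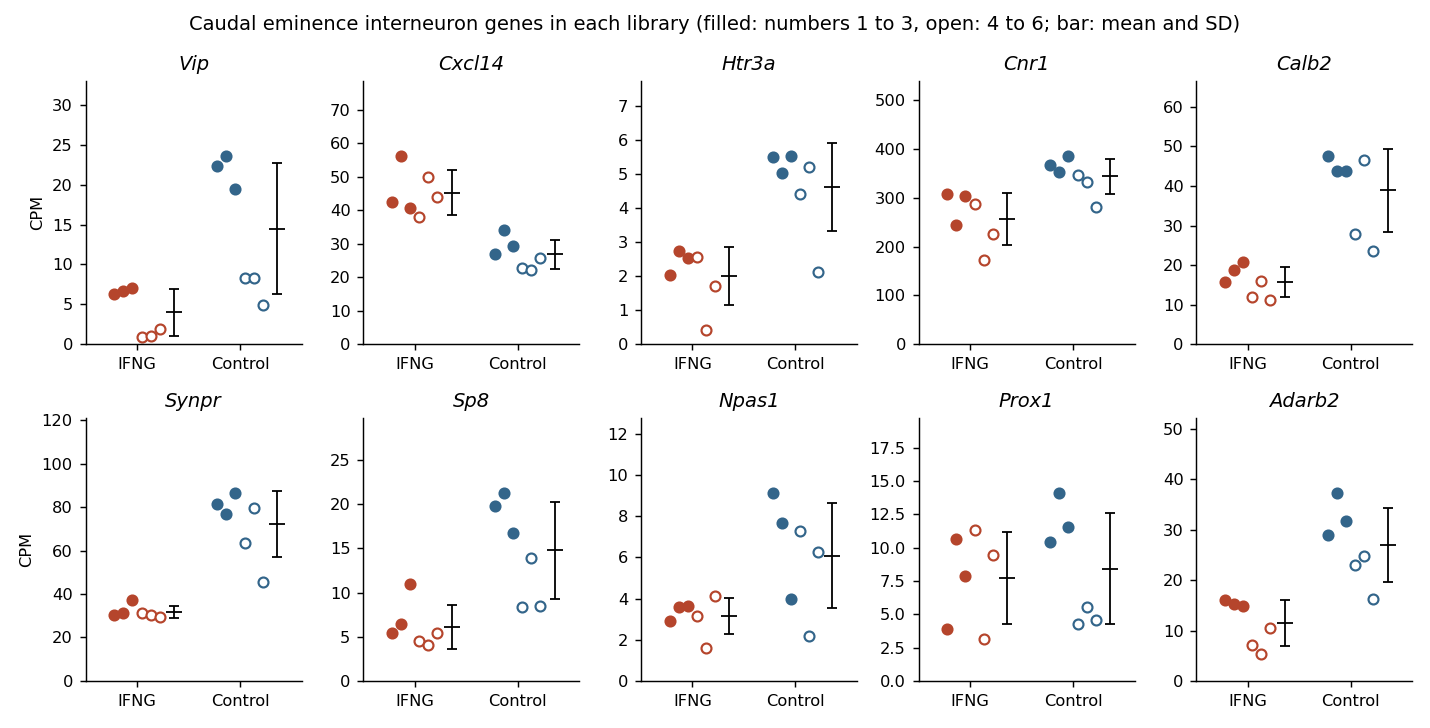
Level of each of the 10 genes in CPM (vertical axis, from 0) in every library, IFNG at the left and Control at the right of each panel; filled points are libraries numbered 1 to 3, open points those numbered 4 to 6, and the bar is the mean with its SD (n = 6 each). Cxcl14 lies higher in all IFNG libraries, Calb2, Synpr and Adarb2 lie lower in all of them, and Vip and Adarb2 lie higher in filled than in open points in both groups.

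Both receptor genes of the set were lower in IFNG, by unequal amounts. Htr3a (chromosome 9) encodes the serotonin receptor subunit that forms an ion channel and marks nearly all caudal interneurons. It stood at 0.43, 2.29 and 2.75 CPM (lowest, median and highest) in IFNG and at 2.13, 5.12 and 5.53 CPM in Control libraries. All but one Control library lay above all IFNG libraries, and the exception was Control 6 at 2.13 CPM. The log2 fold change was -1.21 ± 0.34 (SE), from 10 to 92 counts per IFNG library and 44 to 104 per Control library. Its summed counts, 249 in IFNG and 491 in Control libraries, were the fewest of the set. Cnr1 (chromosome 4) encodes the cannabinoid receptor that is dense on terminals of cholecystokinin interneurons. It was the most abundant of the 10, at 172, 265 and 308 CPM in IFNG libraries and 280, 350 and 385 CPM in Control libraries. Its log2 fold change of -0.42 ± 0.12 (SE) was the smallest among the 8 lower genes, the groups overlapped, and without IFNG 6 it no longer passed the threshold, at -0.38.

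The genes of a calcium-binding and a vesicle protein were lower in every IFNG library than in any Control library. Calb2 (chromosome 8) encodes calretinin, a calcium-binding protein of many VIP cells. It stood at 11.1, 15.8 and 20.8 CPM (lowest, median and highest) in IFNG libraries and at 23.6, 43.9 and 47.5 CPM in Control libraries. Its log2 fold change was -1.30 ± 0.18 (SE), and the groups did not overlap. Synpr (chromosome 14) encodes synaptoporin, a membrane protein of synaptic vesicles. It stood at 29.6, 30.7 and 37.2 CPM in IFNG libraries and at 45.5, 78.2 and 86.5 CPM in Control libraries, without overlap and with a log2 fold change of -1.19 ± 0.13 (SE). Synpr also varied least among the IFNG libraries, with an SD of 8.91% of its mean, against 21.1% in Control libraries.

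Transcription factors of the set did not move alike. Sp8 (chromosome 12), a zinc finger factor of caudal and olfactory bulb interneurons, stood at 4.04, 5.38 and 10.9 CPM (lowest, median and highest) in IFNG and at 8.42, 15.4 and 21.3 CPM in Control libraries. Its log2 fold change was -1.27 ± 0.26 (SE), and only IFNG 3 reached into the Control range. Npas1 (chromosome 7), a factor with a basic helix-loop-helix, stood at 1.59, 3.39 and 4.12 CPM in IFNG libraries and at 2.20, 6.77 and 9.14 CPM in Control libraries. Its groups overlapped, and its log2 fold change of -0.94 ± 0.30 (SE) missed the threshold without any of Control 1 (-0.79), Control 2 (-0.87), Control 4 (-0.87) or IFNG 5 (-0.79). Prox1 (chromosome 1), a homeobox factor needed for the maturation of caudal interneurons, had ranges that overlapped widely. It stood at 3.14, 8.69 and 11.3 CPM in IFNG libraries and at 4.29, 7.998 and 14.1 CPM in Control libraries. Its log2 fold change was -0.12 ± 0.33 (SE) and turned positive without Control 2 (0.09), IFNG 1 (0.01) or IFNG 5 (0.06). An antisense gene, Prox1os, shares 133 exon bases with Prox1 and held 57 counts in all 12 libraries, against 1873 for Prox1.

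Adarb2 (chromosome 13), a relative of the RNA-editing enzymes that is not known to edit and that marks caudal against medial interneurons in the adult cortex, stood at 5.41, 12.7 and 16.0 CPM (lowest, median and highest) in IFNG libraries. In Control libraries it stood at 16.3, 26.9 and 37.3 CPM, so the groups came close without overlapping. Its log2 fold change was -1.22 ± 0.24 (SE). Like Vip, it was higher in the libraries numbered 1 to 3 than in those numbered 4 to 6 in both groups. Among all genes tested 1.12% showed that pattern, and Gad1 and Gad2, which encode the enzymes that make GABA, showed it too.

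Per kilobase of exon, Cnr1 was the most abundant of the 10 genes in Control libraries, at 53.4 ± 5.58 CPM per kb, and Prox1 the least, at 1.004 ± 0.495 CPM per kb (SD, n = 6). Calb2 followed Cnr1 at 22.3 CPM per kb, then Cxcl14 at 14.7, Synpr at 7.65, Vip at 4.26, Sp8 at 3.24, Htr3a at 2.22, Adarb2 at 2.06 and Npas1 at 2.02 CPM per kb. The Control ranges of neighbours in this order overlapped except between Cnr1 and Calb2 and between Cxcl14 and Synpr. In IFNG libraries Cxcl14 stood above Calb2, at 24.8 against 9.03 CPM per kb. Lengths are from GENCODE M21 and cover all annotated exons, so genes with long or rarely used exons read low on this scale.

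Means of Vip, Calb2, Sp8, Adarb2, Synpr and Htr3a stayed lower in IFNG when each library was scaled to its own GABAergic genes, a scale on which no test was run. The scale was the mean log2 CPM of 12 genes of GABAergic neurons in general, which averaged 4.32 ± 0.24 in IFNG and 4.58 ± 0.35 in Control libraries (SD, n = 6 each). The IFNG minus Control difference of the log2 ratio to this mean was -1.78 for Vip, -1.02 for Calb2, -0.99 for Sp8, -1.02 for Adarb2, -0.90 for Synpr and -1.02 for Htr3a. In log2 CPM without the scale it was -2.04, -1.28, -1.25, -1.28, -1.16 and -1.28 for the same genes in that order. The scale itself differed by -0.26 between the groups. This shifts the mean difference of every gene alike, so these mean differences are no second finding. Calb2 averaged -0.37 ± 0.31 in IFNG and 0.66 ± 0.13 in Control on this scale (SD, n = 6 each), and the groups of Calb2, Synpr and Adarb2 stayed apart while those of Vip, Sp8 and Htr3a overlapped. Cnr1 was left with a difference of -0.18, within its SD of 0.24 in IFNG and 0.25 in Control libraries. Prox1 stood at 0.13, Npas1 at -0.58 with groups that overlapped, and Cxcl14 at 1.01 with groups that did not.

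**Figure D2:**
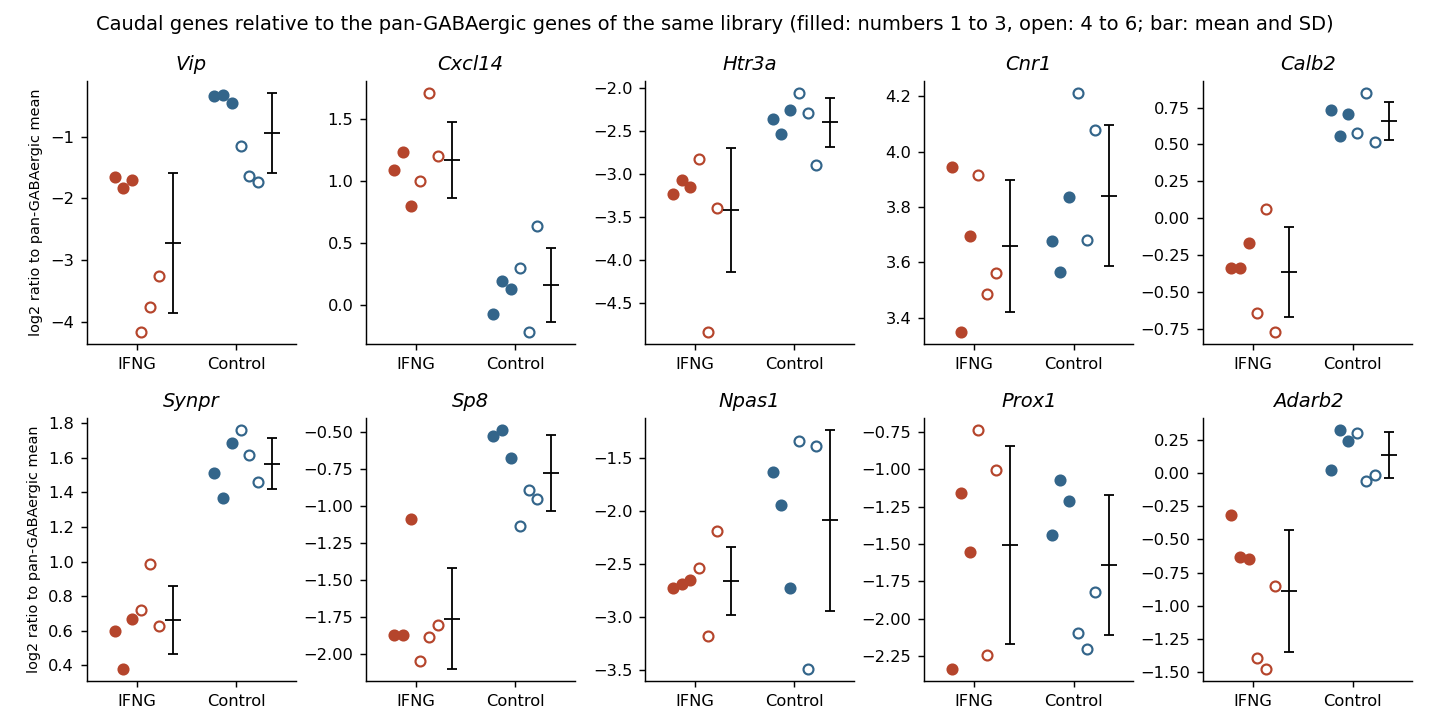
Log2 CPM of each of the 10 genes minus the mean log2 CPM of 12 pan-GABAergic genes in the same library (vertical axis, log2 units, a separate range in each panel), IFNG at the left and Control at the right; points as numbered libraries, filled for 1 to 3 and open for 4 to 6, bars mean and SD (n = 6 each). Calb2, Synpr and Adarb2 stay lower in all IFNG libraries on this scale, and Cnr1 and Prox1 do not separate.

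Other genes listed for caudal interneurons moved in both directions, and not all of them are exclusive to that class. Of 26 listed genes 22 could be tested, and 5 fell and 3 rose, beside 9.79% lower and 14.3% higher over all genes tested. Their median log2 fold change was -0.37. Those that fell were Sp9, a close relative of Sp8, at -1.33 ± 0.28 (adjusted p = 0.00122), Vwc2l at -1.20 ± 0.21 (adjusted p = 0.000193), the neuropeptide Y receptor gene Npy2r at -1.19 ± 0.25 (adjusted p = 0.00148), Lamp5, a marker of neurogliaform cells, at -1.06 ± 0.21 (adjusted p = 0.000785), and the guidance gene Sema3c at -0.88 ± 0.15 (adjusted p = 0.000119). Egln3, an oxygen-sensing hydroxylase, stood at 21.7 ± 4.73 CPM in IFNG libraries, against 4.96 ± 0.99 CPM in Control (SD, 6 libraries each; log2 fold change 2.13 ± 0.18, adjusted p = 1.50e-08). Cbln4, a synapse organiser, rose by 1.15 ± 0.12 (adjusted p = 5.98e-07) and Crhbp, which binds corticotropin-releasing hormone, by 1.15 ± 0.23 (adjusted p = 0.00105). Both are also known from somatostatin interneurons. In bulk RNA the cells behind a rise cannot be told, so none of the 3 rises, that of Egln3 included, is read as one of caudal cells. The abundant nuclear receptor gene Nr2f1 stood at -0.07 ± 0.09 (adjusted p = 0.627), its relative Nr2f2, a caudal eminence factor, at -0.18 ± 0.14 (adjusted p = 0.403), and Reln at -0.17 ± 0.22 (adjusted p = 0.629). Htr3b had no count in any library.

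Genes of the medial eminence showed 3 rises and 1 fall among 13 tested of 16 listed (median log2 fold change -0.11). Over all genes tested 14.3% were higher and 9.79% lower, and with so few genes nothing is read from these counts about the list. Sst, the somatostatin gene, stood at 97.8 ± 18.1 CPM in IFNG libraries, against 57.4 ± 6.26 CPM in Control (SD, 6 libraries each; log2 fold change 0.77 ± 0.11, adjusted p = 3.24e-05). Sox6 rose by 1.05 ± 0.16 (adjusted p = 4.64e-05) and Maf by 1.34 ± 0.13 (adjusted p = 1.43e-07), and both are also known from other cell types. Lhx6, the factor that defines medial interneurons, stood at -0.10 ± 0.16 (adjusted p = 0.712), Nos1 at -0.27 ± 0.16 (adjusted p = 0.243) and Elfn1 at -0.19 ± 0.14 (adjusted p = 0.360), which passed the threshold without Control 4 (-0.29). Satb1 fell by 0.32 on the log2 scale (adjusted p = 0.0270) and missed the threshold without Control 4 (-0.25), Control 5 (-0.31), Control 6 (-0.31), IFNG 2 (-0.30) or IFNG 3 (-0.28). Pvalb was too low to be tested, with 78 counts in IFNG and 32 in Control libraries. Whether caudal and medial genes differ in their response was not tested, since the caudal genes were chosen with their values known.

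Genes of GABAergic neurons in general were split. Of 12 tested, 5 fell and 2 rose, beside 9.79% lower and 14.3% higher over all genes tested. Their median log2 fold change was -0.36. Gad1 stood at 154 ± 25.6 CPM in IFNG libraries, against 246 ± 49.95 CPM in Control (SD, 6 libraries each; log2 fold change -0.68 ± 0.13, adjusted p = 0.000718). The homeobox genes Dlx1 and Dlx2, which drive interneuron differentiation, were lower: Dlx1 fell by 0.99 on the log2 scale (adjusted p = 0.000216) and Dlx2 fell by 1.18 (adjusted p = 0.00349), Dlx6 fell by 1.10 (adjusted p = 0.0327) and Dlx6os1 fell by 0.87 (adjusted p = 0.0217). The Dlx6 log2 fold change missed the threshold without Control 1 (-1.004), Control 2 (-0.95), Control 5 (-1.04), IFNG 1 (-0.97), IFNG 4 (-1.03), IFNG 5 (-0.99) or IFNG 6 (-1.01). The Dlx6os1 log2 fold change missed it without Control 1 (-0.79), Control 2 (-0.76) or Control 3 (-0.75). The vesicular GABA transporter gene Slc32a1 stood at 0.14 ± 0.09 (adjusted p = 0.271) and Gad2 at -0.28 ± 0.17 (adjusted p = 0.255). Gsx2, a factor of dividing precursors, rose by 1.54 ± 0.52 (adjusted p = 0.0380) at 0.92 ± 0.39 CPM in IFNG libraries, against 0.32 ± 0.18 CPM in Control (SD, 6 libraries each). The Gsx2 log2 fold change lost its call in 11 of 20 alternatives, among them those without Control 1 (1.4001), Control 2 (1.55), Control 4 (1.52), Control 6 (1.36), IFNG 2 (1.404), IFNG 3 (1.45), IFNG 4 (1.51) or IFNG 6 (1.51). Without Control 1 or Control 2, 3 of the 12 fell and 1 rose; without Control 4, Control 6 or IFNG 4, 1 rose, and without IFNG 2 or IFNG 6, 0 rose.

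**Figure D3:**
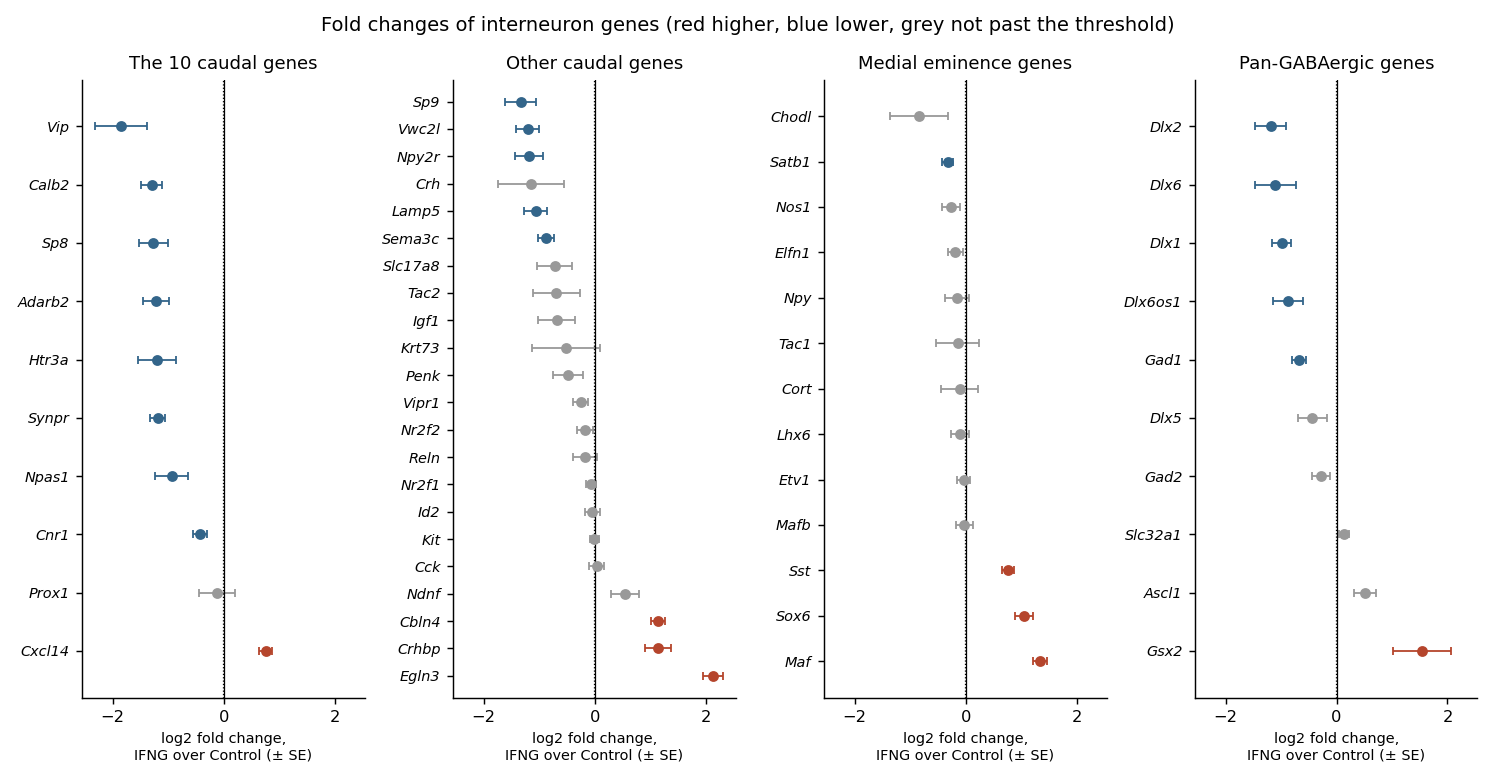
Log2 fold change of IFNG over Control with its SE (horizontal axis) for the 10 caudal genes, the other caudal genes, medial eminence genes and pan-GABAergic genes that could be tested and are reported; red points were higher and blue points lower at an adjusted p under 0.05, grey points were neither, and the dotted line is the median of all genes tested (-0.02). The 10 caudal genes lie between -1.85 for Vip and 0.75 for Cxcl14.

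Between libraries of one group, many pairs of the 10 genes went up and down together. After removal of the group means, log2 CPM of Vip and Adarb2 correlated with r = 0.95 over the 12 libraries, Htr3a and Cnr1 with 0.87, Calb2 and Synpr with 0.83, and Vip and Sp8 with 0.81. The median over the 45 pairs was 0.47, 21 pairs were above 0.5, and 4 were below 0. Npas1 stood at -0.21 with Calb2, and Cxcl14 at -0.25 with Cnr1. IFNG 5 was the lowest IFNG library for Adarb2, Sp8, Htr3a, Npas1, Prox1 and Cnr1, and without it the median was 0.52. Without it Vip and Adarb2 correlated with 0.96, Htr3a and Cnr1 with 0.66, Calb2 and Synpr with 0.83, and Vip and Sp8 with 0.78. Vip and Adarb2 are also the genes of the set that stood higher in libraries 1 to 3 than in 4 to 6 in both groups. The mean of all 10 genes, with group means removed, split the same way. In log2 units it stood at 0.11 to 0.44 in IFNG 1 to 3 and at -0.71 to -0.06 in IFNG 4 to 6. In Control it stood at 0.25 to 0.43 in libraries 1 to 3 and at -0.59 to -0.20 in 4 to 6. Libraries can share a pattern across many genes, so the correlations describe the libraries and carry no p-value. The cause of the shared pattern was not tested. The same figures are not given for pairs of other genes.

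**Figure D4:**
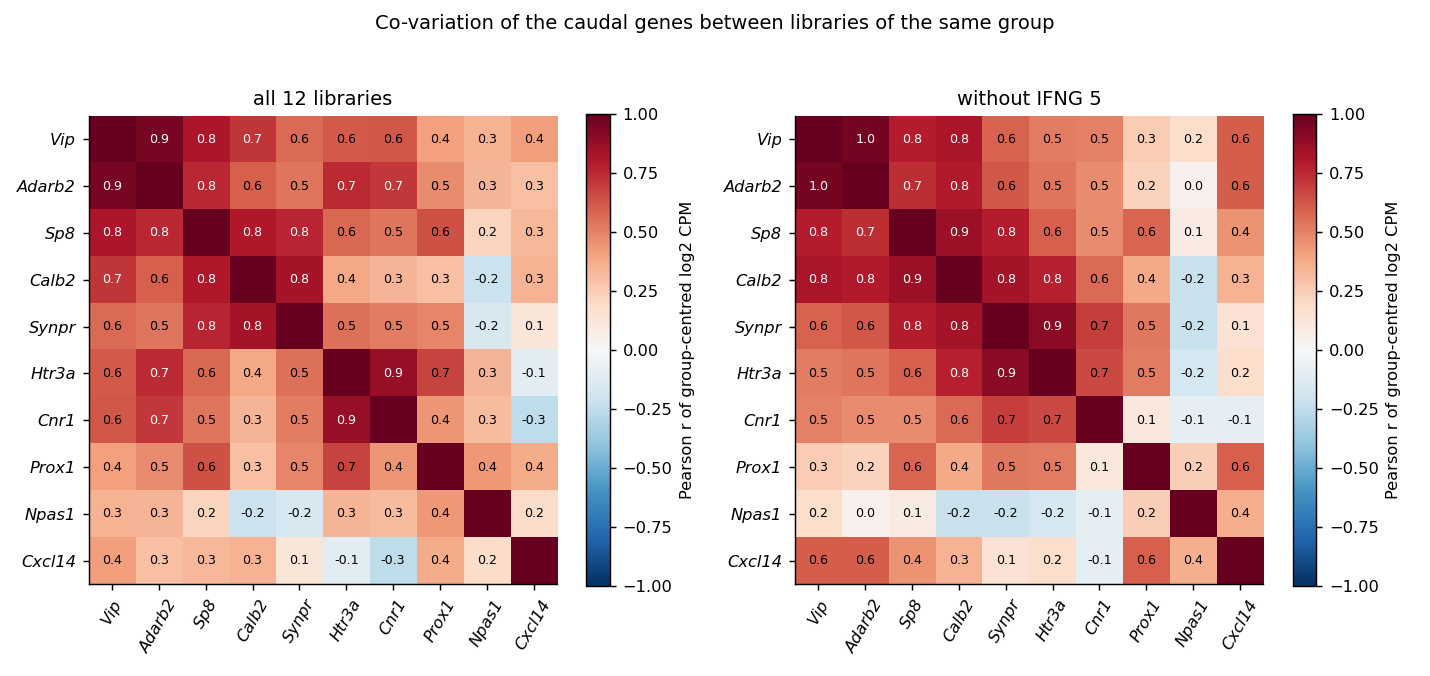
Pearson correlation between each pair of the 10 genes (both axes) of log2 CPM with the group means removed, over all 12 libraries at the left and over 11 without IFNG 5 at the right; red is positive and blue negative. Over 12 libraries the values run from -0.25 for Cxcl14 with Cnr1 to 0.95 for Vip with Adarb2.

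Among 10408 other genes whose log2 CPM averaged 3 or more, the 5 whose within-group pattern was most like the mean of the 10 genes were Tshz1 (r = 0.97), Gad2 (0.96), Simc1 (0.94), Ddx3y (0.94) and Gad1 (0.94), over 12 libraries. Without IFNG 5 these values were 0.96, 0.94, 0.93, 0.90 and 0.95. Tshz1 encodes a zinc finger factor and fell by 0.48 ± 0.14 on the log2 scale (adjusted p = 0.0180). Simc1 stood at -0.15 ± 0.13 (adjusted p = 0.443) and the Y-linked Ddx3y at -0.27 ± 0.19 (adjusted p = 0.321). The mean used for this ranking was higher in libraries 1 to 3 than in 4 to 6 of both groups, as were Gad1 and Gad2. The genes were ranked on the same libraries, so no value here is a test.

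Markers of other cells moved beside these genes, and their part in the fall of the caudal genes was not tested. The counts below are to be read beside the 9.79% lower and 14.3% higher over all genes tested. Of 16 tested astrocyte markers 15 rose and none fell, with a summed level of the 18 listed of 6399 to 12200 CPM in IFNG and 3367 to 4031 CPM in Control libraries; Slc1a3 rose by 1.65 ± 0.12 (adjusted p = 1.06e-09) and Apoe by 1.63 ± 0.23 (adjusted p = 1.71e-05), while Gjb6 had 0 counts in IFNG and 12 in Control libraries. Of 15 pan-neuronal genes 5 fell and none rose, with sums of 5325 to 6400 CPM in IFNG and 6668 to 7274 CPM in Control libraries, and with Map2 at -0.28 ± 0.13 (adjusted p = 0.121) and Syt1 at -0.25 ± 0.10 (adjusted p = 0.0700), which passed the threshold without IFNG 4 (-0.31). Of 10 genes of immature neurons 7 fell and Tubb2b rose (sums of 2038 to 2476 CPM in IFNG and 2374 to 2743 CPM in Control), and Stmn1 fell by 0.55 on the log2 scale (adjusted p = 0.000125). Of 13 excitatory neuron genes 5 fell and 3 rose (966.7 to 1181 CPM in IFNG and 1070 to 1216 CPM in Control), with Slc17a7 at 0.05 ± 0.11 (adjusted p = 0.799) and Neurod6 lower by 0.42 (adjusted p = 0.0112). Markers of Cajal-Retzius cells, which also read Calb2, were led by Reln and by Cacna2d2, which stood at -0.28 ± 0.14 (adjusted p = 0.161) and passed the threshold without Control 4 (-0.36), and their defining factor Trp73 had 149 counts in IFNG and 165 in Control libraries. Of their 6 tested genes Calb2 alone fell and none rose, with sums of 136.7 to 244.1 CPM in IFNG and 134.9 to 295.9 CPM in Control. Of 10 dividing cell genes 2 fell (sums of 139.6 to 176.9 CPM in IFNG and 142.3 to 237.7 CPM in Control), Pcna by 0.34 (adjusted p = 0.0111) while Top2a stood at 0.12 ± 0.17 (adjusted p = 0.658). Of 10 oligodendrocyte lineage genes 2 fell and 1 rose (318.0 to 362.3 CPM in IFNG and 299.1 to 403.1 CPM in Control), Olig2 by 0.35 (adjusted p = 0.0202) while Olig1 stood at -0.19 ± 0.09 (adjusted p = 0.153); Olig2 missed the threshold without IFNG 2 (-0.33) or Control 5 (-0.28). Of 10 microglial genes 3 could be tested, with sums of 24.9 to 41.5 CPM in IFNG and 16.3 to 27.7 CPM in Control, most of it Sall1, which is not exclusive to microglia and rose by 0.69 ± 0.16 (adjusted p = 0.00274). P2ry12 rose as well, with 120 counts in IFNG and 8 in Control libraries. Itgam stood at -0.41 ± 0.66 (adjusted p = 0.711) and Tmem119 had 3 counts in IFNG and 0 in Control libraries.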

How the data were processed

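Gene expression was measured by poly(A) RNA sequencing in 12 libraries from mouse cortical neurons in culture, 6 IFNG and 6 Control. The authors deposited raw counts per gene, not normalized, for 43629 Ensembl identifiers. STAR 2.4, DESeq2 and the builds GRCm39 and mm10 are listed, without their roles, per the submitters' processing notes. The sources used here do not give the counter, its strand setting or its annotation. Symbols (42462 identifiers), lengths and coordinates are from GENCODE M21 (GRCm38), which may differ from the annotation used for counting. No 2 libraries of a group agreed within sampling noise (chi-square of at least 7.04 per gene).

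IFNG was compared with Control in edgeR 4.0.16 (R 4.3.3): TMM scaling, filterByExpr, two-sided quasi-likelihood F-tests, no block, Benjamini-Hochberg adjustment over 15241 genes, threshold 0.05. SE is the absolute log2 fold change over the square root of F. CPM uses TMM-scaled totals; log2 CPM has a prior count of 2. The script was tested on simulated data. The labels do not say whether samples are separate cultures or animals, so p-values measure only the spread between samples, which may be technical. The 10 genes and all gene lists were chosen with earlier results of these data known. Named genes are the 10, of each interneuron list up to 4 called genes by p and the 2 most abundant uncalled ones, the 2 most abundant of each marker list, and the 5 most alike; others were named after their values were seen. Alternatives were DESeq2 size factors, totals without a composition factor, totals without the 1020 genes that rose by over 1 log2 unit, other filters, the replicate block, DESeq2 1.42.0, limma-voom (limma 3.58.1) and libraries left out. Some listed genes are not reported here, but every fit and list count includes them.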

Additional observations from a re-analysis of the deposited data

Results flagged for a closer look

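Within a group of 6 libraries, 3 values lay far from the other 5, by Dixon's criterion (a large gap to the nearest value relative to the range of the group). It was applied to 30 groups of values, the 10 genes and 5 list means in IFNG and in Control libraries, and chance alone marks about 1 in 20. Sp8 stood at 10.9 CPM in IFNG 3, against 4.04 to 6.45 CPM in the other IFNG libraries. Synpr stood at 37.2 CPM in IFNG 3, against 29.6 to 31.2 CPM in the others. Htr3a stood at 2.13 CPM in Control 6, against 4.41 to 5.53 CPM in the other Control libraries.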

How the results depend on the processing

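Over up to 21 alternatives to each result, the 10 genes kept 7 or 8 lower and 1 higher, 7 or 8 when each library was left out, and the other caudal genes 5 or 6 lower and 3 higher. Of 210 values of single caudal genes, 200 kept direction and side of the threshold, 7 lost the call and 3 changed sign. Npas1 log2 fold change lost its call with limma-voom (-0.88) and in 5 settings with libraries left out (-0.87 to -0.73), and Cnr1 log2 fold change without IFNG 6. Prox1 log2 fold change, not called, became 0.01 without IFNG 1, 0.09 without Control 2 and 0.06 without IFNG 5, in a range of -0.2544 to 0.0885 with a library left out. Of 921 values of 44 other genes, 874 stayed, 34 lost the call (Gsx2 11, Dlx6 9, Satb1 8, Dlx6os1 4, Olig2 2), 7 gained one (Syt1 4, Cacna2d2 2, Elfn1 1) and 6 changed sign. Slc17a7 log2 fold change became -0.0079 without Control 2, -0.0070 without IFNG 5 (up to 0.1363 with a library left out) and -0.0489 without IFNG 5 and Control 4, Itgam log2 fold change 0.0334 with the block and 0.2369 with limma-voom, and Lhx6 log2 fold change 0.0041 without Control 2 (from -0.2302 with a library left out). The cause was not tested.

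Medial genes lower became 0 in place of 1 with totals without the genes that rose, with no filter and without IFNG 5 and Control 4, and ranged over 0 to 1 with a library left out. Pan-GABAergic genes lower were 3 with limma-voom (3 to 5 with a library left out), and higher 1 with limma-voom and with the 1 CPM filter (0 to 3 with a library left out). For all genes called, higher numbered 2184 and, for all genes called, lower numbered 1492; totals without the genes that rose gave 2515 and 1066, and 1047 to 1699 were lower with a library left out. No clear pairing of single samples by replicate number was seen (same-number correlations of -0.001 to 0.123, 2 of 6 IFNG libraries closest to their own number). Whether libraries numbered 1 to 3, or 4 to 6, share a batch across the groups was not tested. The replicate block gave 8 lower and 1 higher of the 10 genes and 2114 higher and 1563 lower among all genes. With the replicate block Syt1 log2 fold change passed the threshold (-0.25) and Gsx2 log2 fold change missed it (1.53); Syt1 also passed with limma-voom (-0.26) and with totals without a composition factor (-0.29). With limma-voom Gsx2 (1.51), Dlx6 log2 fold change (-1.02) and Dlx6os1 log2 fold change (-0.82) missed it, as did Gsx2 with no filter (1.56). Htr3a rests on 10 to 104 counts per library, which limits its precision.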
